A study of Rattus norvegicus with 6 samples.

Results

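The genes of the NRF2 antioxidant defence and of the NADPH oxidase were examined in CD163+ macrophages sorted from the ischemic and the control rat brain. The list held 40 genes of 7 roles. It was matched by symbol to the array annotation, using only probe sets that name exactly 1 gene and, for each gene, the probe set of highest mean over the 6 arrays. Of the 40 genes, 39 had such a probe set, out of 14217 genes on the array, and 38 were among the 9928 genes whose signal was high enough to be tested. The exceptions were *Prdx1*, measured only by a probe set it shares with *Prdx1l1* and therefore given no value, and *Sod3*, which stayed below the filter.

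All animals were adult male Sprague-Dawley rats. In the ischemia group (rats 64, 65 and 66) the right middle cerebral artery was occluded for 1 h and the brain was taken 16 h after blood flow returned, and the control group (rats 63, 68 and 69) had no ischemia. CD11b+CD163+ cells, labelled as perivascular and meningeal macrophages, were sorted by flow cytometry from the right hemisphere. Each rat gave 1 Affymetrix array, and the 3 rats of a group were its replicates. Values are log2 values from robust multi-array average (RMA), which background-corrects, quantile-normalizes and summarizes the probes of a set. They compare rats for 1 gene and do not rank different genes.

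NRF2, encoded by *Nfe2l2*, is a transcription factor that KEAP1 holds at low levels by directing it to degradation. When reactive species or electrophiles modify KEAP1, NRF2 accumulates, pairs with a small MAF protein and binds the antioxidant response element in front of genes for glutathione and thioredoxin metabolism, conjugation and NADPH supply. In phagocytes the NADPH oxidase is a major source of superoxide, which superoxide dismutases turn into hydrogen peroxide for removal by catalase, glutathione peroxidases and peroxiredoxins.

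To show where the letters of that element lie in front of these genes, the RefSeq promoter windows of build GRCr8, which run 250 bases before to 50 bases after each transcription start, were searched on both strands. The core TGACNNNGC, in which N is any base, was found in 10 of the 36 listed genes with a window (27.8%) and in 13.1% of the 27457 genes with a window. The related AP-1 core TGANTCA was in 10 of the 36 (27.8%) and in 8.04% of all. Both motifs overlapped in 4 of the 36 (11.1%) and in 0.484% of all. No window was listed for *Gsr*, *Prdx6*, *Sod3* and *Ncf4*. Of the genes that changed after ischemia, 4 of 12 that rose held TGACNNNGC, as did 1 of 2 that fell and 4 of 21 not past the test. TGANTCA was in 5 of 12 that rose, 1 of 2 that fell and 3 of 21 not past it. Both overlapped in 1 of 12 that rose, 1 of 2 that fell and 1 of 21 not past it. A match is a description of letters, and binding was not measured. Stretches of 59 bases around the match are printed for 2 genes that rose (*Me1*, *Txnrd1*), 1 that fell (*Gstp1*) and 2 not past the test (*Ephx1*, *Gclm*), because the same core letters, TGACTCAGC, occurred in *Me1*, *Gstp1* and *Ephx1*, whose calls differed. Sequences run 5′ to 3′ on the strand of the gene, and capitals mark TGACNNNGC or, in *Txnrd1*, *Ephx1* and *Gclm*, its reverse complement.
Me1, chr8:96540378-96540436 (minus strand): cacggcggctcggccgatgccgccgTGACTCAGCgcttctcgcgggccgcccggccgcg
Txnrd1, chr7:22755949-22756007 (minus strand): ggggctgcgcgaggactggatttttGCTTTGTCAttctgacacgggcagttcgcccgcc
Gstp1, chr1:210769733-210769791 (minus strand): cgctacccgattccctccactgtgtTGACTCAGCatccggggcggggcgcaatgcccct
Ephx1, chr13:95263141-95263199 (minus strand): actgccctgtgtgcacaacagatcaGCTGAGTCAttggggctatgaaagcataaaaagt
Gclm, chr2:213031938-213031996 (plus strand): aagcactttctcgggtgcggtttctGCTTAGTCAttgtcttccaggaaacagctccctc
In *Me1* the match began 167 bases before the start, in *Gstp1* 61 bases before it and in *Ephx1* 57 bases before it. *Prdx1*, which has no value here, held the same letters on the opposite strand. *Txnrd1* and *Ephx1* have 2 start windows each, and TGACNNNGC was found only in window 2 of each.

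**Figure D1:**
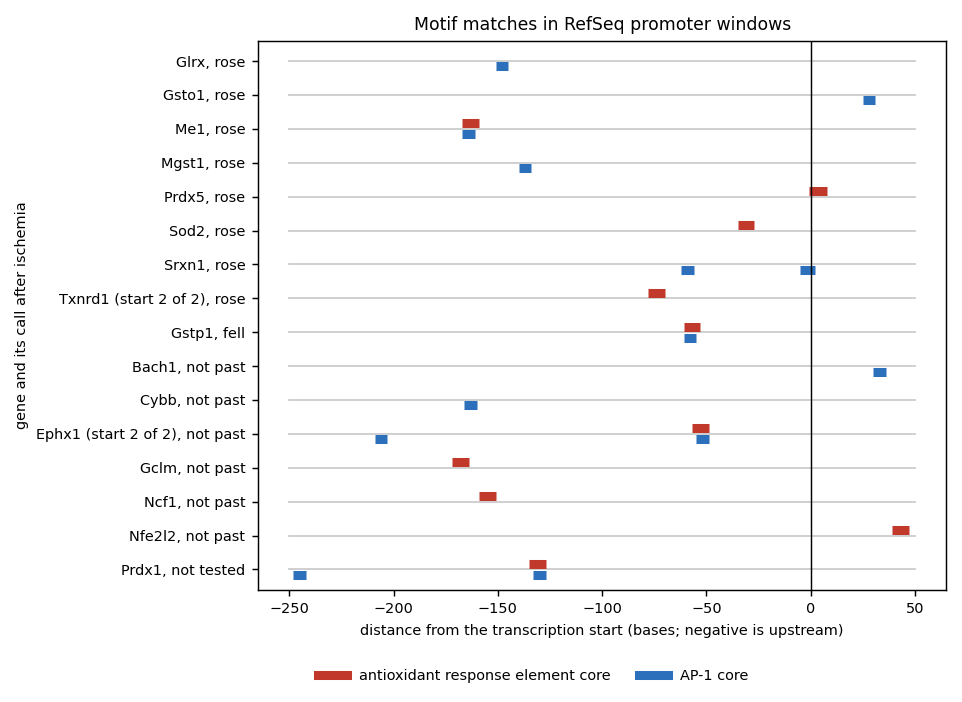
Positions of TGACNNNGC (red, antioxidant response element core) and TGANTCA (blue, AP-1 core) in the promoter windows of listed genes that hold either, against distance from the transcription start in bases. Genes are ordered by their call after ischemia, and matches stand both in genes that rose (*Me1*, *Txnrd1*, *Sod2*, *Prdx5*) and in *Gstp1*, which fell.

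Ischemia was compared with control for every gene in a single limma fit, with p-values adjusted by the Benjamini-Hochberg method over all 9928 genes. Rises and falls are named at an adjusted p below 0.01, and each log2 fold change is the ischemia mean minus the control mean, given with its standard error (SE). Of the 38 genes tested, 14 rose (36.8%), against 16.8% of all genes tested, and 2 fell (5.26%), against 5.99% of all. Another 22 were not past the test. A log2 fold change above 2 was reached by 4 of those that rose, *Me1*, *Prdx5*, *Srxn1* and *Nqo1*, and by 1.63% of all genes. The 3 ischemic rats all lay above the 3 controls in 20 genes (35.7% of all genes tested did) and all below them in 5 (19.9% of all), and the groups overlapped in 13. The median log2 fold change was 0.38 over the 38 genes and 0.10 over all genes. Among 58 further genes of the same pathways that were tested, 14 rose (24.1%) and 3 fell (5.17%). By role, 20% of glutathione supply genes, 16.7% of superoxide and peroxide removal genes and 25% of oxidase subunits rose. The share was 87.5% for thioredoxin and peroxiredoxin, 40% for transferases, 33.3% for quinone, NADPH and other targets and 0% for regulators. These counts, some of few genes, are a description. *Me1* passed the low-signal filter only through its 3 ischemic arrays, and *Srxn1* had 1 control array above the filter, so the filter used the difference it then tested. With 3 rats a group, the smallest p of a two-sided exact permutation test is 0.1, and the number of rats limits the precision of array values.

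The share of rises depended on the scaling. When the 42 ribosomal protein genes were used to centre the arrays (ribosomal centring), the median of all genes shifted by -0.425 to -0.32, with 397 genes called higher and 1360 called lower (22.6% rises, against 73.7% with the deposited scaling). Then 9 of the 38 genes rose and 5 fell (64.3% rises, against 87.5%). Their median lay 0.275 above that of all genes, against 0.277 with the deposited scaling. Such centring moves all genes of an array by the same amount, so that gap was fixed in advance apart from genes crossing the filter.

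**Figure D2:**
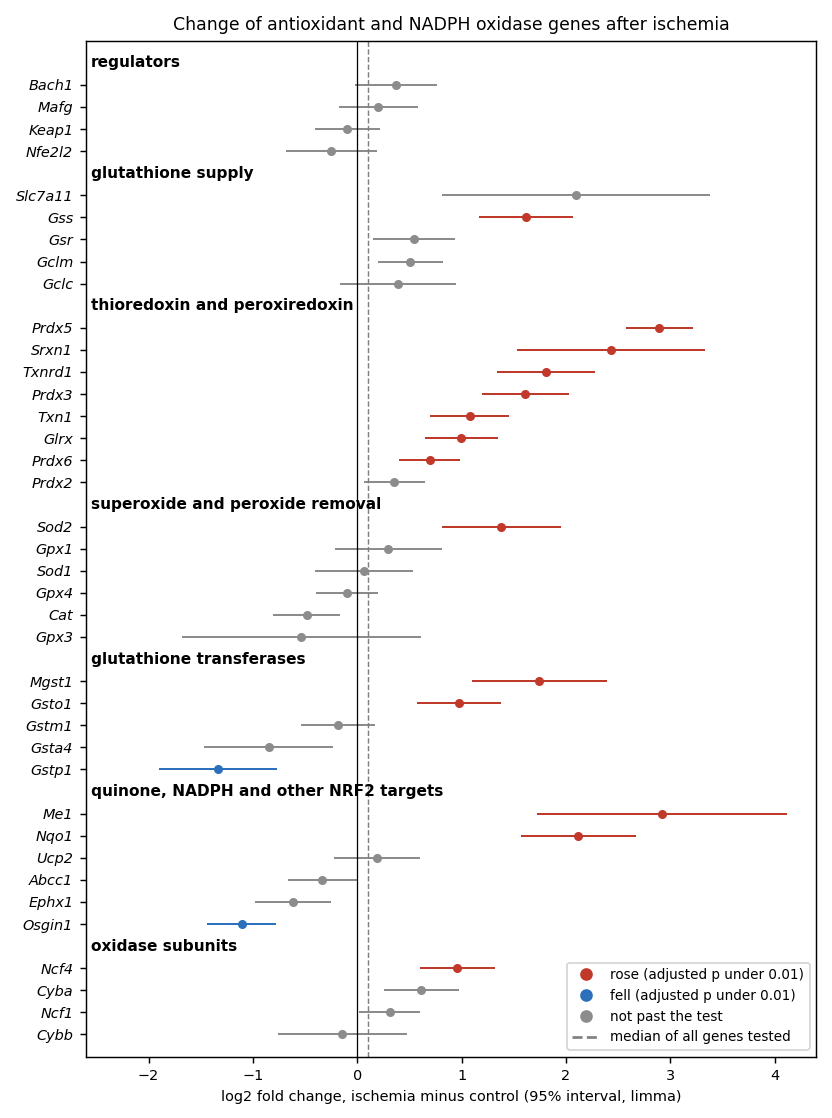
Log2 fold change (ischemia minus control) of the 38 genes tested, by role, with 95% intervals from limma. Red points rose, blue points fell and grey points were not past the test, and the dashed line is the median of all genes, 0.10. All 8 thioredoxin and peroxiredoxin genes lie to the right of that line, although *Prdx2* moves to -0.070 with ribosomal centring.

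The arrays and the cell type were checked first. Array medians lay between 7.82 and 7.895, and no value of control 63 exceeded 13.85, while the highest on the other 5 arrays was 14.88 to 14.96. The 3′ minus 5′ difference of the actin probe sets was 0.168 to 0.237 after ischemia and 0.0582 to 0.0730 in controls, and that of GAPDH was 0.750 to 0.797 and 0.520 to 0.651. The part of these differences in the results was not tested. The gate's own gene *Cd163* averaged 13.84 after ischemia and 13.30 in controls, and the mannose receptor *Mrc1* 14.04 and 14.22. Of 12 border-associated macrophage markers tested none rose (limma; 0 higher and 7 lower at an unadjusted p under 0.05). Of these 12, 3 fell (25%, against 5.99% of all genes tested), most *Igfbp4* (-2.68) and *Colec12* (-1.95). Monocyte and recruited macrophage markers rose in 8 of 10 (80%, against 16.8% of all genes tested), led by *Vcan* (6.74) and *Fn1* (5.96). The control mean of *Vcan* was within background. All marker lists were chosen with earlier results of these data known. The authors name several of these genes, such as *Vcan*, *Fn1* and *Igfbp4*, among the top changes in these arrays. The marker counts are therefore a description. *F13a1*, which was on the monocyte list and on the border-associated macrophage list, was at -0.77 (adjusted p = 0.136). The brightest probe sets weigh most in a summed level. The log2 of the summed linear level of the monocyte list was 15.64 to 16.26 after ischemia and 14.59 to 14.96 in controls. *F13a1* had the highest value of that list in every control (14.31 in control 68), so the control sums leaned on a shared marker. Granulocyte markers rose in 3 of 6 (50%), led by *S100a8* (3.36) and *Lcn2* (3.34), both over control means within background. In limma 5 of the 6 were higher and 0 lower at an unadjusted p under 0.05. Of these, *S100a9* (2.19, adjusted p = 0.0119) and *Csf3r* (0.93, adjusted p = 0.0113) were not past the test. In both the groups were apart and the control mean was within background. The summed levels of the granulocyte list were 10.84 to 11.998 after ischemia and 9.93 to 10.30 in controls. *Camp* and *Mmp8* stayed within background on all 6 arrays, and *Cxcr2* was at -0.50 (adjusted p = 0.179). *Cxcr2* had the highest value of the granulocyte list in every control (9.63 in control 68), so the control sums leaned on it. Of the other markers, 3 of 8 fell for oligodendrocytes (37.5%, most *Ermn* at -2.32), against 5.99% of all genes tested. For microglia 1 of 7 fell (14.3%, *P2ry12* at -1.78) and for neurons 1 of 4 (25%, *Gria2* at -3.75). Rises were 1 of 6 for endothelial and mural cells (16.7%, *Cspg4* at 1.34) and 1 of 6 for astrocytes (16.7%, *Gfap* at 2.07), against 16.8% of all genes. Of 5 lymphocyte markers 1 rose (20%, *Cd2* at 1.58) and 2 fell (40%, most *Cd7* at -3.12). In sorted bulk RNA, a change in the share of a cell type and a change in RNA per cell cannot be told apart, and the part of these cells in the results was not tested. *Vcan*, *S100a8* and *Lcn2* passed the low-signal filter only through their 3 ischemic arrays. Control 63 stood apart from the other controls in vascular and astrocyte markers, with 10.52 for *Cldn5*, against 6.09 in control 68 and 7.03 in control 69, and 10.18 for *Aqp4*, against 7.78 and 7.68 in those controls. Background was set at 7.37, the 90th percentile of 31 genes of other tissues, although *Apoa2* among them reached 8.90.

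None of the 4 regulators was past the test (limma; 0 at an unadjusted p under 0.05), and in all 4 the groups overlapped. *Nfe2l2* itself had 13.17, 13.02 and 12.74 in ischemic rats and 12.94, 13.19 and 13.55 in controls. The fold change was -0.25 (SE 0.19, adjusted p = 0.318), with a 95% interval of -0.68 to 0.19. Transcript levels do not show NRF2 activity, which is set mainly by protein stability. *Bach1*, a repressor that competes with NRF2 for the same elements, had 11.10, 11.59 and 11.17 in ischemic rats and 10.79, 10.85 and 11.10 in controls, a fold change of 0.37 (SE 0.17, adjusted p = 0.114). With quantile normalization repeated *Nfe2l2* was at -0.41 (adjusted p = 0.0555), and with ribosomal centring at -0.68 (adjusted p = 0.0334). *Keap1* was at -0.10, and at -0.52 with that centring (adjusted p = 0.0958), and the small MAF partner *Mafg* at 0.20, with -0.11 at a second probe set of *Mafg*. *Bach1* and *Mafg* turned to -0.055 and -0.22 with it. Among 6 other regulators and adaptors none was past the test (2 higher and 1 lower at an unadjusted p under 0.05), and *Rbx1*, a subunit of the ligase that KEAP1 recruits, was at 0.48 (adjusted p = 0.0242).

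All 5 glutathione supply genes were higher after ischemia, except that *Gclc* turned to -0.035 with ribosomal centring, and 1 rose. That gene was *Gss*, glutathione synthetase, which joins glycine to the dipeptide in the last step of synthesis. It had 9.78, 10.30 and 10.49 in ischemic rats and 8.54, 8.72 and 8.45 in controls, a gap of over 1 log2 unit between the groups. The fold change was 1.62 (SE 0.20, adjusted p = 0.000883), or 3.07-fold. *Slc7a11*, the subunit of the antiporter that brings in cystine, had 9.42, 11.55 and 10.94 in ischemic rats and 8.80, 9.16 and 7.66 in controls. The groups did not overlap, but rat 64 lay close to control 68, and the fold change of 2.10 (SE 0.56) had an adjusted p of 0.0184 in limma. Without ischemia 64 it was 2.71 (adjusted p = 0.0022), while leaving out another rat gave an adjusted p of up to 0.0569. *Gclc*, the catalytic subunit of the rate-limiting glutamate-cysteine ligase, had 10.27, 10.22 and 10.61 in ischemic rats and 9.62, 9.78 and 10.52 in controls, with control 69 above 2 of the ischemic rats (0.39, SE 0.24, adjusted p = 0.224). Its modifier subunit *Gclm* was at 0.51 (adjusted p = 0.0189) and glutathione reductase *Gsr* at 0.55 (adjusted p = 0.0344), with the control mean of *Gsr* within background. Of 6 other genes of this supply 2 rose, the glutamine transporter *Slc1a5* by 3.10 (SE 0.20, adjusted p = 0.000104) and *Chac1*, which breaks glutathione down, by 1.01 (SE 0.16, adjusted p = 0.00212). The control mean of *Chac1* was within background, and it passed the low-signal filter only through its 3 ischemic arrays. *Slc3a2*, the partner chain of *Slc7a11*, was at 0.22 (adjusted p = 0.169).

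The thioredoxin and peroxiredoxin genes held 7 of the 14 rises. In all 8 genes tested, every ischemic rat lay above every control, although *Prdx2* turned to -0.070 with ribosomal centring, and the median log2 fold change was 1.34. *Prdx5*, a peroxiredoxin of mitochondria, peroxisomes and cytosol, had 14.54, 14.78 and 14.95 in ischemic rats and 11.84, 11.88 and 11.85 in controls. The 3 controls were nearly equal, and the 3 ischemic rats were far above them. The fold change was 2.90 (SE 0.14, adjusted p = 4.25e-05), or 7.44-fold. The ischemic values were near the top of the scale, and that of rat 66 was the highest on its array. *Prdx3*, the peroxiredoxin of the mitochondrial matrix, had 10.52, 10.97 and 11.13 in ischemic rats and 9.12, 9.39 and 9.28 in controls, and rose by 1.61 (SE 0.18, adjusted p = 0.000668). *Prdx6*, which uses glutathione and also reduces phospholipid peroxides, had 10.26, 10.16 and 10.39 in ischemic rats and 9.47, 9.64 and 9.62 in controls, and rose by 0.69 (SE 0.13, adjusted p = 0.00424). The groups of *Prdx6* lay close together for a called gene, and the call was lost with ribosomal centring (0.27, adjusted p = 0.378) and without any single rat other than ischemia 64 (adjusted p = 0.0116 to 0.0207). The cytosolic *Prdx2* had 12.49, 12.68 and 12.56 in ischemic rats and 12.12, 12.20 and 12.34 in controls, and was not past the test (0.36, SE 0.13, adjusted p = 0.0546).

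*Txn1*, the cytosolic thioredoxin, had 13.95, 14.01 and 14.13 in ischemic rats and 12.64, 13.19 and 13.04 in controls, and rose by 1.08 (SE 0.17, adjusted p = 0.00205). *Txnrd1*, which returns thioredoxin to its reduced form with NADPH, had 10.54, 11.005 and 11.25 in ischemic rats and 8.87, 9.23 and 9.27 in controls, and rose by 1.81 (SE 0.21, adjusted p = 0.00071). In both genes rat 64 was the lowest ischemic rat and control 63 the lowest control, with clear gaps between the groups. *Srxn1*, sulfiredoxin, which restores overoxidized peroxiredoxins, had 8.15, 9.15 and 9.36 in ischemic rats and 6.31, 5.87 and 7.17 in controls, a rise of 2.44 (SE 0.39, adjusted p = 0.00245). Its control values lay within background, and its dimmer probe sets gave 1.16 and -0.13. Its call was lost without ischemia 65, control 63 or control 68 (adjusted p = 0.0107 to 0.0133). *Glrx*, the glutaredoxin that removes glutathione from protein thiols, had 13.19, 13.42 and 13.09 in ischemic rats and 12.42, 12.04 and 12.24 in controls, and rose by 0.998 (SE 0.15, adjusted p = 0.00202). With ribosomal centring *Txn1* (0.65, adjusted p = 0.0298) and *Glrx* (0.57, adjusted p = 0.107) were no longer past the test, nor were they without ischemia 65 (adjusted p = 0.0101 and 0.0116). Among 15 further genes of thioredoxin and methionine sulfoxide repair 5 rose and 2 fell. *Msrb1*, a reductase of oxidized methionine, rose by 1.04 (SE 0.21, adjusted p = 0.00597), while the stress protein *Sesn1* fell by 2.02 (SE 0.27, adjusted p = 0.00127) and *Txnip*, which binds and inhibits thioredoxin, fell by 1.30 (SE 0.29, adjusted p = 0.00915). The mitochondrial thioredoxin *Txn2* was at 0.23 (adjusted p = 0.241), and the mitochondrial thioredoxin reductase *Txnrd2*, chosen after its values were seen, at -0.23 (adjusted p = 0.214).

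**Figure D3:**
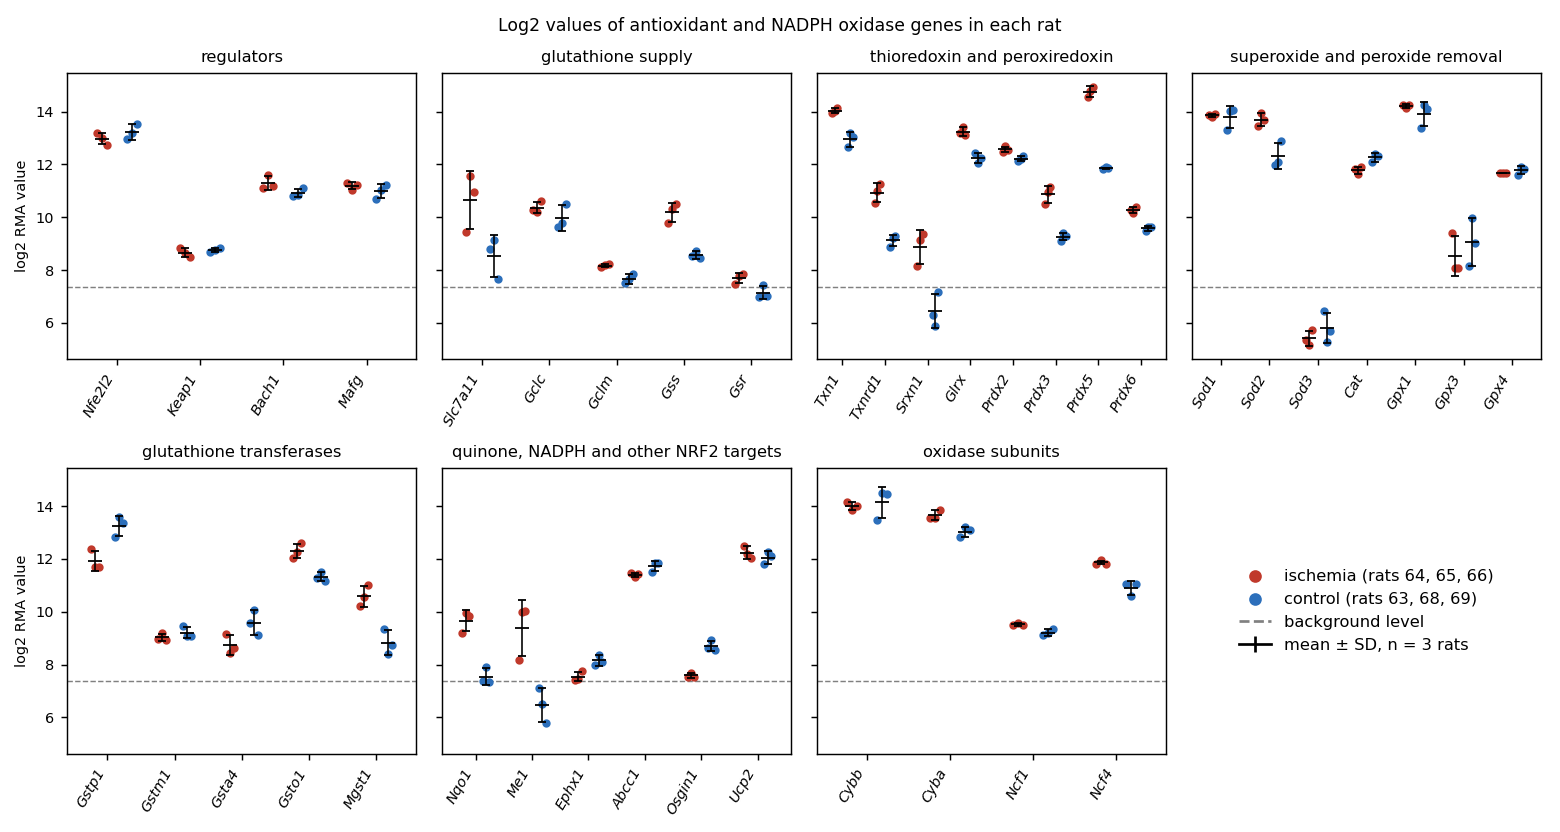
Log2 RMA value of each of the 39 measured genes in each rat, by role, with ischemia (red) left of control (blue), black bars for mean ± SD (n = 3 rats) and a dashed line for the background level of 7.37. The groups are apart in every thioredoxin and peroxiredoxin gene and overlap in every regulator, and the controls of *Srxn1* and *Me1* lie below the line.

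Of the 6 tested genes that remove superoxide and peroxide, 1 rose (16.7%, against 16.8% of all genes tested). *Sod2*, the manganese superoxide dismutase of mitochondria, had 13.47, 13.93 and 13.69 in ischemic rats and 11.98, 12.10 and 12.88 in controls. Control 69 was nearest to the ischemic rats, and the fold change was 1.38 (SE 0.25, adjusted p = 0.00374). That call was lost without ischemia 65 or 66 or control 63 or 68 (adjusted p = 0.0126 to 0.0177). *Sod1*, the copper-zinc enzyme of the cytosol, had 13.86, 13.81 and 13.90 in ischemic rats and 13.31, 14.02 and 14.05 in controls. Its ischemic values stood between control 63 and the other 2 controls, the fold change was 0.06 (SE 0.21, adjusted p = 0.823), and it turned to -0.18 without control 63. *Gpx1*, the main cytosolic glutathione peroxidase, also had control 63 as its lowest value, with 14.24, 14.12 and 14.24 in ischemic rats and 13.37, 14.25 and 14.09 in controls (0.30, SE 0.22, adjusted p = 0.308). With ribosomal centring *Gpx1* turned to -0.13 and *Sod1* to -0.36. Catalase (*Cat*) was at -0.49 (adjusted p = 0.0255), with the 3 ischemic rats below the 3 controls. It passed the test with ribosomal centring (-0.91, adjusted p = 0.00649), with quantile normalization repeated (-0.65, adjusted p = 0.00412) and with array weights. *Gpx4*, which protects membrane lipids, was at -0.10 and the secreted *Gpx3* at -0.54 (adjusted p = 0.552 and 0.411). The extracellular dismutase *Sod3* averaged 5.42 after ischemia and 5.81 in controls, within background. Among 6 other genes of peroxide and superoxide removal, the selenoprotein *Selenow* rose by 1.08 (SE 0.21, adjusted p = 0.0048), and *Selenop* was at -0.69 (adjusted p = 0.121).

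The glutathione transferases, which conjugate electrophiles to glutathione, moved in different directions, with 2 rises and 1 fall among 5. *Mgst1*, the microsomal enzyme, had 10.20, 10.55 and 11.0005 in ischemic rats and 9.36, 8.41 and 8.74 in controls, and rose by 1.75 (SE 0.28, adjusted p = 0.0024). *Gsto1*, of the omega class, had 12.05, 12.24 and 12.60 in ischemic rats and 11.29, 11.50 and 11.17 in controls, and rose by 0.97 (SE 0.17, adjusted p = 0.00376). *Gstp1*, of the pi class, had 12.36, 11.70 and 11.70 in ischemic rats and 12.84, 13.57 and 13.36 in controls. The groups did not overlap, with ischemia 64 and control 63 nearest to each other, and the fold change was -1.33 (SE 0.25, adjusted p = 0.00416). Of these calls, *Mgst1* lost its own without control 68 or 69 (adjusted p = 0.0103 and 0.0102), *Gsto1* with ribosomal centring (0.55, adjusted p = 0.101) and without ischemia 65 or 66 or control 63 or 69 (adjusted p = 0.0125 to 0.0155), and *Gstp1* without ischemia 65 or 66 or control 68 or 69 (adjusted p = 0.0161 to 0.019). *Gsta4*, which clears products of lipid peroxidation, had 9.15, 8.44 and 8.61 in ischemic rats and 9.57, 10.06 and 9.11 in controls, and *Gstm1* had 8.96, 9.20 and 8.93 in ischemic rats and 9.46, 9.10 and 9.08 in controls. Their fold changes were -0.85 and -0.19 (adjusted p = 0.0359 and 0.358), and the groups overlapped in both. With ribosomal centring *Gsta4* passed the test (-1.28, adjusted p = 0.0047). Among 5 other transferase genes, *Gstcd* rose by 1.68 (SE 0.18, adjusted p = 0.000594), and *Mgst2* was at 0.53 (adjusted p = 0.141).

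The remaining targets of NRF2 also split, with 2 rises and 1 fall among 6. *Nqo1*, the quinone reductase that is a standard readout of NRF2, had 9.20, 9.94 and 9.85 in ischemic rats and 7.37, 7.92 and 7.35 in controls. Every ischemic rat was more than 1 log2 unit above every control, and the fold change was 2.12 (SE 0.24, adjusted p = 0.000685), or 4.34-fold, with controls 63 and 69 at the background level. *Me1*, malic enzyme, which makes NADPH in the cytosol, had 8.17, 9.99 and 10.04 in ischemic rats and 7.12, 6.50 and 5.81 in controls, with all controls within background. It rose by 2.92 (SE 0.52, adjusted p = 0.0037), with 2.09 at its second probe set, and the call was lost without ischemia 65 or 66 or control 68 or 69 (adjusted p = 0.0122 to 0.0168). *Osgin1*, a growth inhibitor named for its induction by oxidative stress, had 7.53, 7.70 and 7.54 in ischemic rats and 8.64, 8.91 and 8.54 in controls. It fell by 1.11 (SE 0.14, adjusted p = 0.00113) with no overlap, and its ischemic values were close to background. *Ucp2*, a carrier of the inner mitochondrial membrane, had 12.51, 12.19 and 12.02 in ischemic rats and 11.80, 12.26 and 12.10 in controls, which overlapped (0.19, SE 0.18, adjusted p = 0.427), and turned to -0.24 with ribosomal centring. *Abcc1*, an exporter of glutathione conjugates, had 11.45, 11.30 and 11.43 in ischemic rats and 11.50, 11.85 and 11.84 in controls. The ischemic rats were lower without overlap, by a small margin at control 63 (-0.34, SE 0.14, adjusted p = 0.0935). Epoxide hydrolase *Ephx1* was at -0.61 (adjusted p = 0.0159), also without overlap, and passed the test with ribosomal centring (-1.04, adjusted p = 0.00321) and with array weights.

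Of 14 other genes of NADPH supply and NRF2 targets 5 rose and 1 fell. The aldo-keto reductase *Akr1b8* rose, with means of 9.72 after ischemia and 6.54 in controls (SE of the difference 0.27, adjusted p = 0.000286). Its control mean was within background, and it passed the filter only through its 3 ischemic arrays. *Pgd*, which yields NADPH in the pentose phosphate pathway, rose by 1.31 (SE 0.27, adjusted p = 0.00645). In the later steps of the same pathway, chosen after their values were seen, *Tkt* rose by 1.18 (SE 0.16, adjusted p = 0.0013) and *Taldo1* by 1.17 (SE 0.15, adjusted p = 0.00109). *Blvrb*, a biliverdin reductase, fell by 1.37 (SE 0.24, adjusted p = 0.00356), and *Akr1a1* was at 0.29 (adjusted p = 0.227). Heme oxygenase *Hmox1*, also chosen after its values were seen, was at -0.12 (SE 0.40, adjusted p = 0.826), with means of 13.20 after ischemia and 13.32 in controls and overlapping groups.

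Among the oxidase subunits 1 of 4 rose (25%, against 16.8% of all genes tested). *Cybb*, the catalytic flavocytochrome chain NOX2, had 14.15, 13.85 and 13.99 in ischemic rats and 13.47, 14.49 and 14.47 in controls. Control 63 was the lowest and the other 2 controls the highest of the 6, and the fold change was -0.14 (SE 0.27, adjusted p = 0.692), turning to 0.031 without control 68 and 0.019 without control 69. It was at -0.48 without control 63 (adjusted p = 0.0356) and at -0.57 with ribosomal centring (adjusted p = 0.0598). With quantile normalization repeated *Cybb* was at -0.38 (adjusted p = 0.0326). *Cyba*, the membrane chain that stabilizes it, had 13.55, 13.53 and 13.86 in ischemic rats and 12.82, 13.19 and 13.09 in controls, with no overlap, and was not past the test (0.61, SE 0.16, adjusted p = 0.0159). Its second, dimmer probe set gave -0.13. *Ncf4*, a cytosolic subunit that binds membrane phosphoinositides, had 11.82, 11.95 and 11.82 in ischemic rats and 11.05, 10.61 and 11.06 in controls, and rose by 0.96 (SE 0.16, adjusted p = 0.00268). The call was lost with ribosomal centring (0.53, adjusted p = 0.129) and without ischemia 65 (adjusted p = 0.0149). *Ncf1*, the cytosolic organizer, was at 0.31 (adjusted p = 0.0809), and turned to -0.12 with ribosomal centring. The sort gate required CD163, and the summed levels of granulocyte and monocyte markers, given above, were higher after ischemia; the part of such cells in the oxidase values was not tested. Among 6 other subunits and partners none was past the test (1 higher and 0 lower at an unadjusted p under 0.05), and the GTPase *Rac1* was at 0.46 (adjusted p = 0.0899).

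Across rats, the size of the response differed. Rat 64 was the ischemic rat nearest to the controls in 11 of the 14 genes that rose (78.6%), and in 76.6% of all genes that rose. Relative to the control mean, the 14 genes had a median of 1.23 in rat 64, 1.71 in rat 65 and 1.90 in rat 66, against -0.071, 0.046 and 0.014 in controls 63, 68 and 69. Control 63 was the lowest control in all 6 tested genes with a control mean above 13, and in 97.0% of the 230 such genes on the whole array, so its low place in *Cybb*, *Sod1*, *Gpx1* and *Gstp1* was shared by most genes of high signal.

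**Figure D4:**
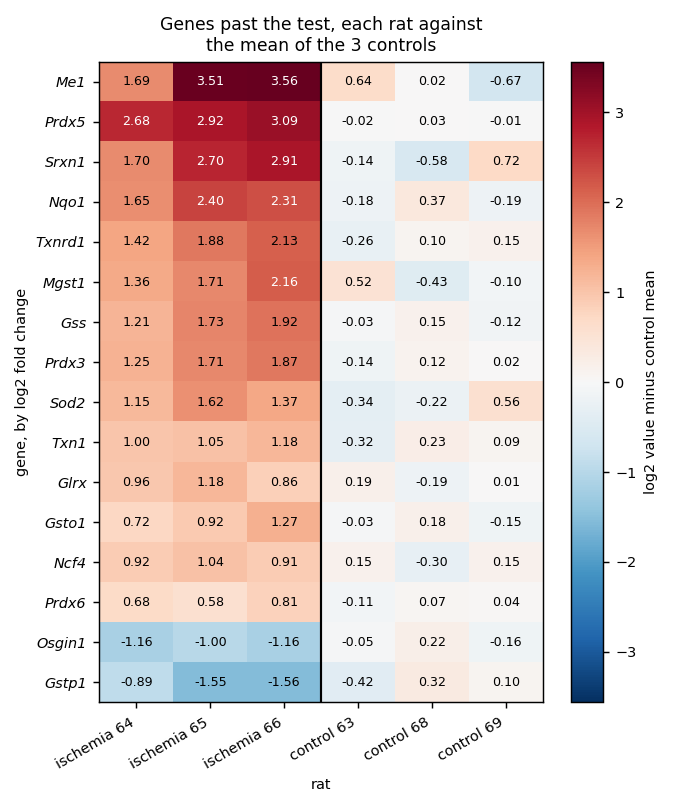
Log2 value minus the mean of the 3 controls in each rat (columns, ischemia left of control), for the 14 genes that rose and the 2 that fell, ordered by log2 fold change. Rat 64 shows the smallest difference in most rows, and the controls of *Prdx5* are nearly equal.

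The 16 calls differed in how they stood up to other settings. *Prdx5*, *Prdx3*, *Txnrd1*, *Nqo1*, *Gss* and *Osgin1* had an adjusted p under 0.01 in every alternative fit that tested them apart from the ordinary linear model without moderation, in which no gene on the array was called (19 listed genes were higher and 4 lower at an unadjusted p under 0.05). The other 10 lost the call in at least 1 further alternative fit, and none of the 16 changed direction in these fits. A log2 fold change beyond 2 was required in a further alternative, and of these 6 genes *Prdx5* and *Nqo1* met it. Another 6 genes, *Slc7a11*, *Gclm*, *Gsr*, *Cat*, *Gsta4* and *Ephx1*, had an adjusted p under 0.01 in at least 1 alternative fit.

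**Figure D5:**
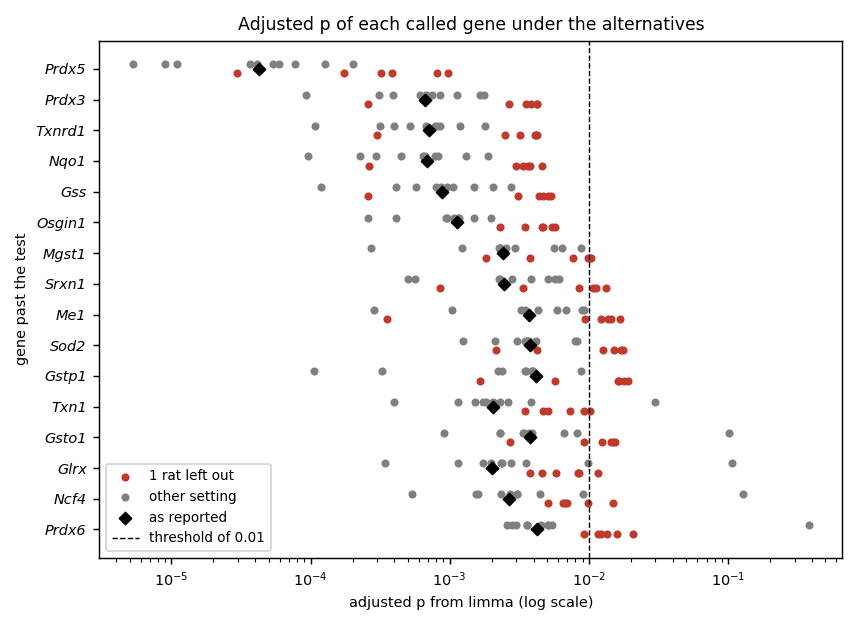
Adjusted p from limma, on a log axis, for each of the 16 called genes as reported (black), with 1 rat left out (red) and under other settings (grey), leaving out the fit without moderation. The dashed line is the threshold of 0.01, and the upper 6 genes lie left of it in all the fits plotted.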

How the data were processed

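Affymetrix GeneChip rat arrays, 1 per rat, were analysed. What the authors deposited is on the log2 scale after RMA. The submitters' processing notes name limma 3.18 and R 3.3.1. The table holds 31099 probe sets, and all its columns belong to these rats. The labelling protocol in the labels speaks of fixed tissue, although cells were freshly sorted. All 39 gene identifiers keep their symbol in the GRCr8 annotation.

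A gene entered the test if 3 or more arrays were above 7.16 (the 40th percentile). Groups were compared with limma 3.58.1 (lmFit, eBayes) in R 4.3.3, two-sided, and p-values were adjusted by Benjamini-Hochberg. The script was tested on simulated data. The members, roles, other pathway genes and markers were chosen with earlier results of these data known. All members are named, with each rat's value for those called and the 2 brightest others per role. Of the other pathway genes, the largest changes and the brightest gene not past the test are named. Of each marker list, at least the largest change past the test is named. Alternatives covered filters, probe sets, scaling, moderation, array weights, thresholds and leaving out each rat. An array gives no read depth.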

Additional observations from a re-analysis of the deposited data

How the results depend on the processing

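The 38 genes gave 628 comparisons of a fold change with an alternative, of which 555 kept their direction and their side of the threshold, 50 lost the call, 10 gained it and 13 reversed. The 50 losses include all 16 called genes in the fit without moderation, where no gene on the array was called. The 3 rats a group, a control array with a lower ceiling and controls near background (*Srxn1*, *Me1*, *Gsr*) limit these values. The cause of each change was not tested unless a filter removed genes.

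Leaving out 1 rat gave 6 (without ischemia 65) to 15 listed genes that rose and 1 to 2 that fell, against 681 to 1564 and 166 to 816 of all genes. *Sod1* turned to -0.18 without control 63, and *Cybb* ranged between -0.48 (without control 63) and 0.031 (without control 68), with 0.019 without control 69.

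With ribosomal centring 9 listed genes rose and 5 fell, with 397 and 1360 of all genes. Medians there were -0.045 (all listed), -0.37 (regulators), 0.12 (glutathione supply), 0.92 (thioredoxin and peroxiredoxin), -0.45 (superoxide and peroxide removal), -0.61 (transferases), -0.50 (quinone, NADPH and other targets), 0.034 (oxidase) and -0.32 (all genes). Reversed values were -0.055 for *Bach1*, -0.22 for *Mafg*, -0.035 for *Gclc*, -0.070 for *Prdx2*, -0.36 for *Sod1*, -0.13 for *Gpx1*, -0.24 for *Ucp2* and -0.12 for *Ncf1*.

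Repeating quantile normalization gave 14 listed rises and 3 listed falls, with 1394 rises and 927 falls over all genes. The listed median was 0.24 and *Sod1* was at -0.14. Array weights gave 17 listed rises and 4 listed falls, with 2374 rises and 1309 falls over all genes. The transferase median was -0.014 and *Sod1* was at -0.091. Without moderation limma called 0 listed genes and 0 of all genes in either direction (lowest adjusted p 0.0101), with 19 listed genes higher and 4 lower, and 2973 and 1505 of all genes, at an unadjusted p under 0.05. At an adjusted p under 0.05, *Slc7a11*, *Gclm*, *Gsr* and *Cyba* joined the 14 listed rises and 5 listed genes fell. Of all genes 2722 rose and 1377 fell. With a log2 fold change beyond 2 as well, 4 listed genes rose and 0 fell (6 lower at an unadjusted p under 0.05 in limma), with 162 and 58 of all genes.

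The filter at the 60th percentile, which removed *Ephx1*, *Gclm*, *Gsr*, *Me1*, *Osgin1* and *Srxn1*, left 1 fall and medians of 1.62 (glutathione supply), 1.08 (thioredoxin and peroxiredoxin) and 0.19 (quinone, NADPH and other targets). A low-variability filter kept 26 listed genes, with medians of 0.97 (all listed), 1.61 (thioredoxin and peroxiredoxin), -0.49 (superoxide and peroxide removal), 0.062 (transferases), 0.75 (quinone, NADPH and other targets), 0.61 (oxidase) and 0.50 (all genes). Averaging probe sets gave 1.12 (thioredoxin and peroxiredoxin) and 0.27 (oxidase). No paired analysis was possible because the groups share no rat numbers.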
